A study of Mus musculus with 12 samples.

Results

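The clustered protocadherins were examined in RNA-Seq libraries of mouse somatosensory cortex. The members were the gene symbols that consist of Pcdha, Pcdhb or Pcdhg, an optional a, b or c, and a number, which gave 58 of the 24452 symbols in the deposited files. There were 14 members in the alpha cluster, 22 in the beta cluster and 22 in the gamma cluster. The libraries came from male pups on a C57BL/6 background at postnatal day 7, with 3 libraries in each of 4 groups. WT and p53 KO pups were given either saline or ethanol in a pair of intraperitoneal injections, and brains were taken 8 hours after the second. The KO mice carry the germline Trp53 tm1Tyj allele, which removes the 5′ part of the p53 gene in every cell, and were offspring of heterozygous parents, as were the WT mice. The cortex was cut out by laser microdissection in the first samples and by hole punch in the later ones, with no record here of which library had which, and no layer was separated, so a library mixes neurons, glia and vessels. The comparisons asked whether ethanol changed the expression of these genes in either genotype, and whether the genotypes differed.

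Clustered protocadherins are cadherin-like membrane proteins of the neuronal surface that bind the same isoform on the facing membrane. Each neuron expresses its own small set of them, and the resulting surface code lets branches of one neuron recognize and avoid each other, while gamma members are also needed for the survival of many interneurons and for dendrite growth. In the alpha and gamma clusters a variable first exon with its own promoter is spliced to constant 3′ exons that encode a common cytoplasmic tail. Beta genes have no constant exons. The C-type genes at the ends of the alpha and gamma clusters (Pcdhac1, Pcdhac2, Pcdhgc3, Pcdhgc4 and Pcdhgc5) are used by many neurons together rather than chosen by single cells.

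The 3 clusters lie in a row on the plus strand of mouse genome version mm10 (GRCm38). The alpha genes span chr18:36930285-37187661, the beta genes chr18:37264998-37521420 and the gamma genes chr18:37661945-37841873. In the GENCODE models matched to the deposited transcripts, an alpha transcript has 4 exons, with a first exon of 2346 to 3028 bases and shared exons of 2860 bases. A beta gene is 1 exon. A gamma transcript has 4 exons with a first exon of 2421 to 2961 bases, and its shared exons amount to 2116 to 2119 bases in all gamma members except Pcdhgb8, whose matched model holds 375.
This structure decides how much of a transcript a 75-base read can tell apart. Of all 75-base windows of a matched model, 40.0% to 52.0% occurred in no other member for alpha genes, 91.0% to 100% for beta genes and 48.0% to 59.0% for gamma genes apart from Pcdhgb8 (83.0%). The deposited estimated counts reflected this. All 253 beta counts above 0 were whole numbers (within 1e-06), whereas 0 of 168 alpha counts and 1 of 264 gamma counts were. The split of alpha or gamma reads between members was therefore an estimate of the authors' quantification, and values of single alpha and gamma genes are less certain than those of beta genes or of whole clusters. The matched models also differed in base composition, with a GC content of 46.5% to 49.8% in alpha, 39.1% to 49.0% in beta and 51.0% to 55.4% in gamma models. For several beta genes the model is longer than the deposited transcript. The model of Pcdhb14, with the lowest GC content (39.1%), has 8695 bases, whereas the deposited gene spans chr18:37447657-37451095. The beta values therefore include sequence outside the counted transcripts.

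The total estimated count per library ranged from 719735 to 17066392, and the members held between 0.0507% and 0.138% of it. The libraries with the lowest totals were KO ethanol replicate 12 (719735, of which 365 counts were of members) and WT saline replicate 3 (1953154, of which 1936 were). Their names in the labels open with the letter L, and the other 10 open with P, a letter whose meaning neither the labels nor the methods give. In KO ethanol replicate 12, 26 of the 58 members had under 3 counts, and a count of 0 there allows up to 5.01 CPM (counts scaled to a common library size with TMM factors, as all CPM values here), counting error only. WT saline replicate 1 stood apart in composition. Its TMM factor was 0.564 against 0.832 to 1.23 in the other libraries. The summed level of 5 red blood cell markers was 1319, 337 and 482 CPM in WT saline replicates 1, 3 and 13. It was 50.3 to 145 CPM in WT ethanol and 35.9 to 99.3 CPM in KO saline libraries, so all WT saline libraries lay above both of these groups, and 32.1, 765 and 29.0 CPM in KO ethanol libraries. In WT saline replicate 1 the summed level of 5 meningeal fibroblast markers was 788 CPM against 11.3 to 335 elsewhere, and that of 7 astrocyte and radial glia markers 5470 against 1670 to 3340. In WT ethanol replicate 4 the 5 choroid plexus and ependyma markers summed to 5038 CPM against 0 to 2257 elsewhere, and the 9 markers of cortical excitatory neurons to 412 against 798 to 1377. No cortical neuron marker was at 0 in all libraries. Trp53 did not mark the KO libraries, with 3.67 to 26.2 CPM in the 6 WT and 11.1 to 28.7 CPM in the 6 KO libraries. The allele still gives transcripts of the 3′ exons, so a count over the whole gene does not test the genotype labels.

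Per length, 3 of the 5 C-type genes were the highest members. On the authors' RPKM scale, Pcdhgc3 had a median of 20.6 over the 12 libraries (5.46 to 49.7), Pcdhac2 14.4 (5.90 to 25.0) and Pcdhgc4 12.6 (3.10 to 27.8). Their ranges overlapped, so the order among these 3 is not firm. The other two were lower, with a mean RPKM of 4.48 for Pcdhgc5 (place 12 of the 58 members) and 2.14 for Pcdhac1 (place 32). Among the remaining members, of which each neuron expresses its own small set, Pcdhga11 had the highest mean RPKM of the gamma cluster (7.96 ± 2.21, SD over all 12 libraries). In the alpha cluster, Pcdha5 had 6.32 ± 4.52 and Pcdha9 6.00 ± 2.89, but by the median Pcdha5 (4.98) was below Pcdha12 (5.95) and Pcdha9 (5.65). Beta genes were lower, with a median of 1.497 over the 22 genes, and the highest means were those of Pcdhb17 (4.60 ± 2.95), Pcdhb9 (4.21 ± 1.63) and Pcdhb7 (3.89 ± 1.92). These means pool groups that differ, since Pcdhb17 had a mean of 8.62 in WT saline and 2.09 in KO ethanol libraries, and by the median Pcdhb20 (3.92) was above Pcdhb17 (3.75), so the order is not firm. The median of the 12 gamma A genes was 2.79, that of the 7 gamma B genes 1.79 and that of the 12 alternate alpha genes, the alpha genes other than the C-type pair, 3.67. Pcdhb1 was barely detected, with 11 counts in all libraries together.

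**Figure D1:**
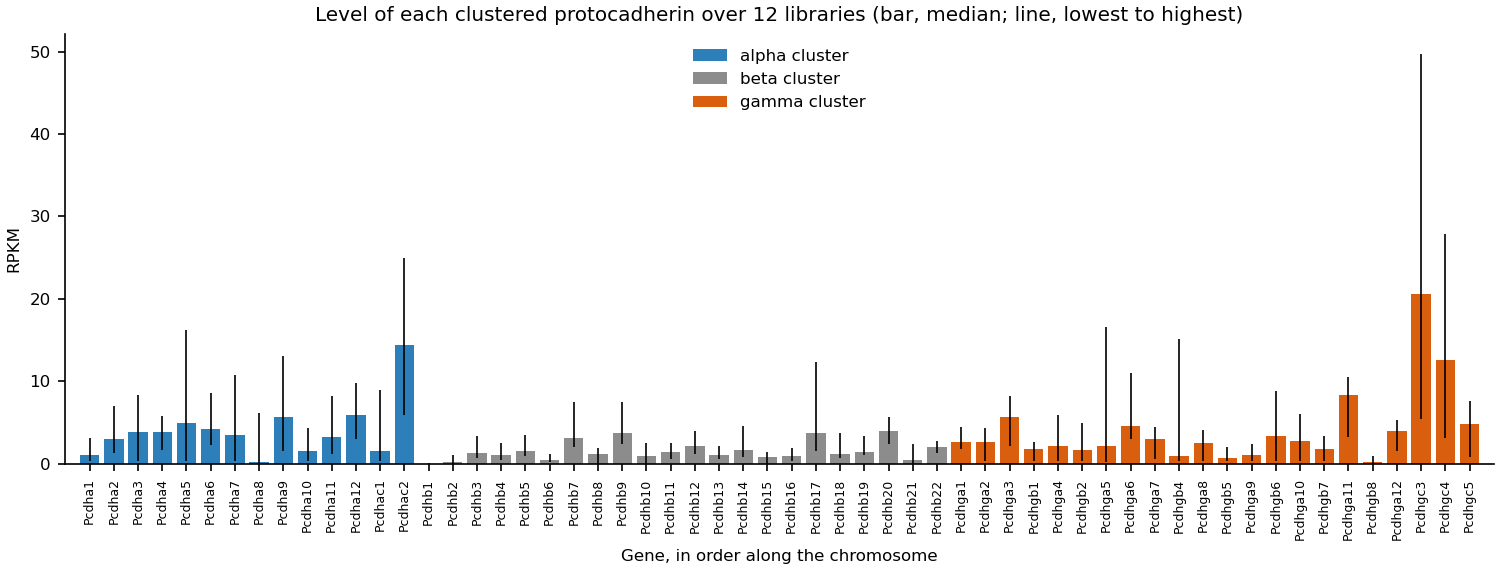
Level of the 58 clustered protocadherins in RPKM as the authors deposited it, a value per transcript length whose sorted values are nearly the same in every library, in the order of the genes along the chromosome. Bars are medians over the 12 libraries and lines run from the lowest to the highest library. Pcdhac2, Pcdhgc3 and Pcdhgc4 stand above the other members, and Pcdhb1 is near 0.

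The summed level of each cluster was compared between the groups as CPM normalized with the TMM factors of edgeR. Libraries are listed in the order of their replicate numbers, which are 1, 3 and 13 for WT saline, 4, 5 and 14 for WT ethanol, 7, 8 and 9 for KO saline, and 10, 12 and 18 for KO ethanol. The alpha sum was 627, 381 and 431 CPM with saline and 290, 380 and 366 CPM with ethanol in WT mice. It was 330, 459 and 414 CPM with saline and 280, 232 and 284 CPM with ethanol in KO mice. WT saline replicate 1 was the highest library and the KO ethanol libraries were the lowest 3 of 12. Group means were 480 ± 130 (saline) and 345 ± 48.9 (ethanol) for WT mice, and 401 ± 65.5 and 265 ± 28.8 for KO mice (SD, n = 3). The log2 ratio of the means, ethanol to saline, was -0.47 in WT and -0.60 in KO mice, and the KO groups did not overlap. The WT groups were barely apart, with 380.8 CPM in WT saline replicate 3 and 380.3 in WT ethanol replicate 5. Without WT saline replicate 1 the WT ratio was -0.23. With all libraries it was 0.03 when library totals were used without TMM factors, a scaling that moved the median log2 fold change of all symbols from 0.06 to 0.49. The KO ratio was -0.58 with that scaling and -0.26 with the trend with length and GC content removed. In bulk tissue, fewer cells that express a gene and less of its RNA per cell cannot be told apart.
The beta sum was 243, 105 and 205 CPM with saline and 156, 128 and 148 CPM with ethanol in WT mice. In KO mice it was 103, 175 and 156 CPM with saline and 104, 132 and 111 CPM with ethanol. All 4 pairs of groups overlapped. The log2 ratios of the means, between -0.32 and -0.35, were smaller than the pooled SD of the log2 sums within groups (0.39), and those for ethanol in WT mice and genotype under saline were 0.18 and 0.17 without TMM factors, where the medians of all symbols moved from 0.06 and 0.04 to 0.49.
The gamma sum was 152, 509 and 527 CPM with saline and 760, 495 and 529 CPM with ethanol in WT mice, and 549, 415 and 610 CPM and then 524, 245 and 507 CPM in KO mice. The groups overlapped in all 4 comparisons. The extremes were WT saline replicate 1, the lowest library, and WT ethanol replicate 4, the highest, which are the libraries with the highest red blood cell and the highest choroid plexus markers. The libraries next in choroid plexus markers, KO saline replicate 9 (2257 CPM) and KO ethanol replicate 18 (2216 CPM), had gamma sums of 610 and 507. The part of these markers in the gamma levels was not tested. The log2 ratio of the gamma means was 0.59 for ethanol and 0.41 for p53 KO against WT saline, within a pooled SD of 0.64, and fell to 0.20 and 0.02 without WT saline replicate 1.

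**Figure D2:**
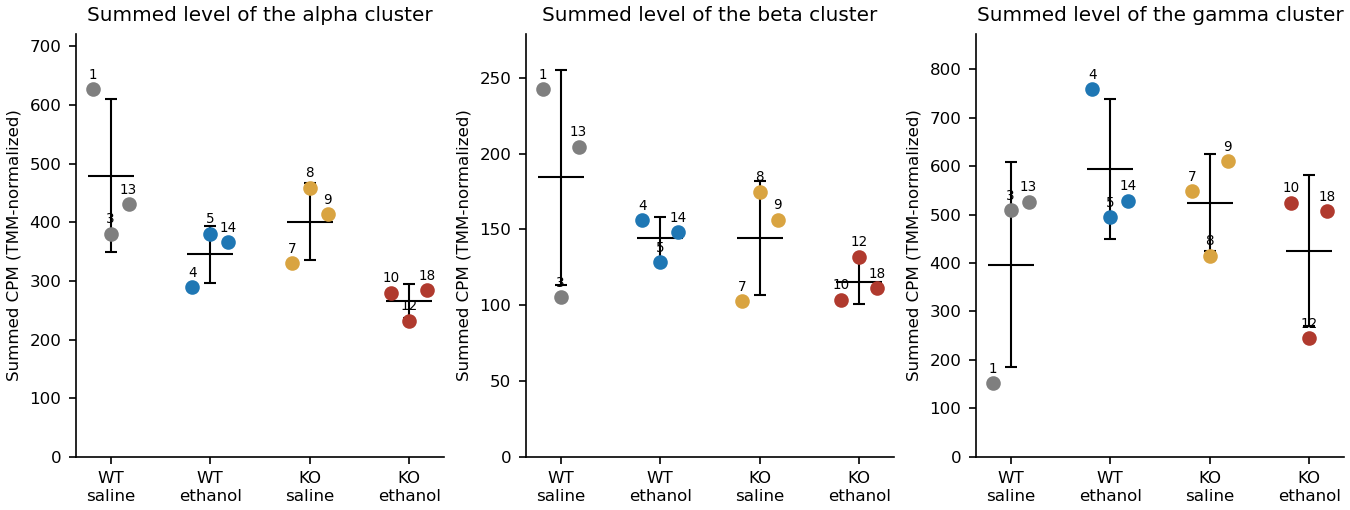
Summed level of the alpha, beta and gamma clusters in each library (CPM scaled by TMM factors, linear axis from 0). Points are libraries with their replicate number, and black marks are group means with SD (n = 3). WT saline replicate 1 is the highest library for alpha (627) and the lowest for gamma (152), and the 3 KO ethanol libraries are the lowest for alpha (232 to 284). With library totals in place of TMM factors, the WT ethanol difference in alpha moves from -0.47 to 0.03 and the median of all symbols from 0.06 to 0.49.

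Shares within a cluster do not depend on how libraries are scaled. They can still depend on length and GC content, to which counts were related differently between libraries. Pcdhac2 has the highest GC content of the alpha models (49.8%), and the part of this in its share was not tested. Pcdhac2 took 10.7%, 9.47% and 23.6% of the alpha count in the WT saline libraries. With ethanol it took 27.8%, 30.8% and 33.1% in WT mice. In KO mice it took 27.7%, 33.3% and 28.6% with saline and 23.6%, 13.7% and 27.5% with ethanol. Every WT ethanol and every KO saline library was above the WT saline libraries, and every KO ethanol library was below both of those groups. How often the shares of other members set these groups apart is not given here, so this is not read as particular to Pcdhac2. The lowest of these shares were in WT saline replicates 1 and 3 and KO ethanol replicate 12, the libraries that also stand apart in markers or depth. The 13.7% of KO ethanol replicate 12 rests on 18.9 estimated counts. The remaining WT saline and KO ethanol libraries lay between 23.6% and 27.5%, just under the other groups.
In the gamma cluster the 3 C-type genes together held 36.6%, 15.8% and 48.9% of the count in WT saline and 42.8% to 49.3% in WT ethanol libraries. They held 36.2% to 46.1% in KO saline, and 37.6%, 24.8% and 41.3% in KO ethanol libraries. WT saline replicate 3 was unlike any other library in its gamma genes. Pcdhga5 took 17.4% of its gamma count and 0.439% to 3.74% in the other 11 libraries, and Pcdhgb4 took 15.6% against at most 2.27%. The gamma B genes as a whole took 36.6% there and 7.23% to 14.1% elsewhere. The Pcdhga5 share rests on 172 estimated counts and the Pcdhgb4 share on 154.

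**Figure D3:**
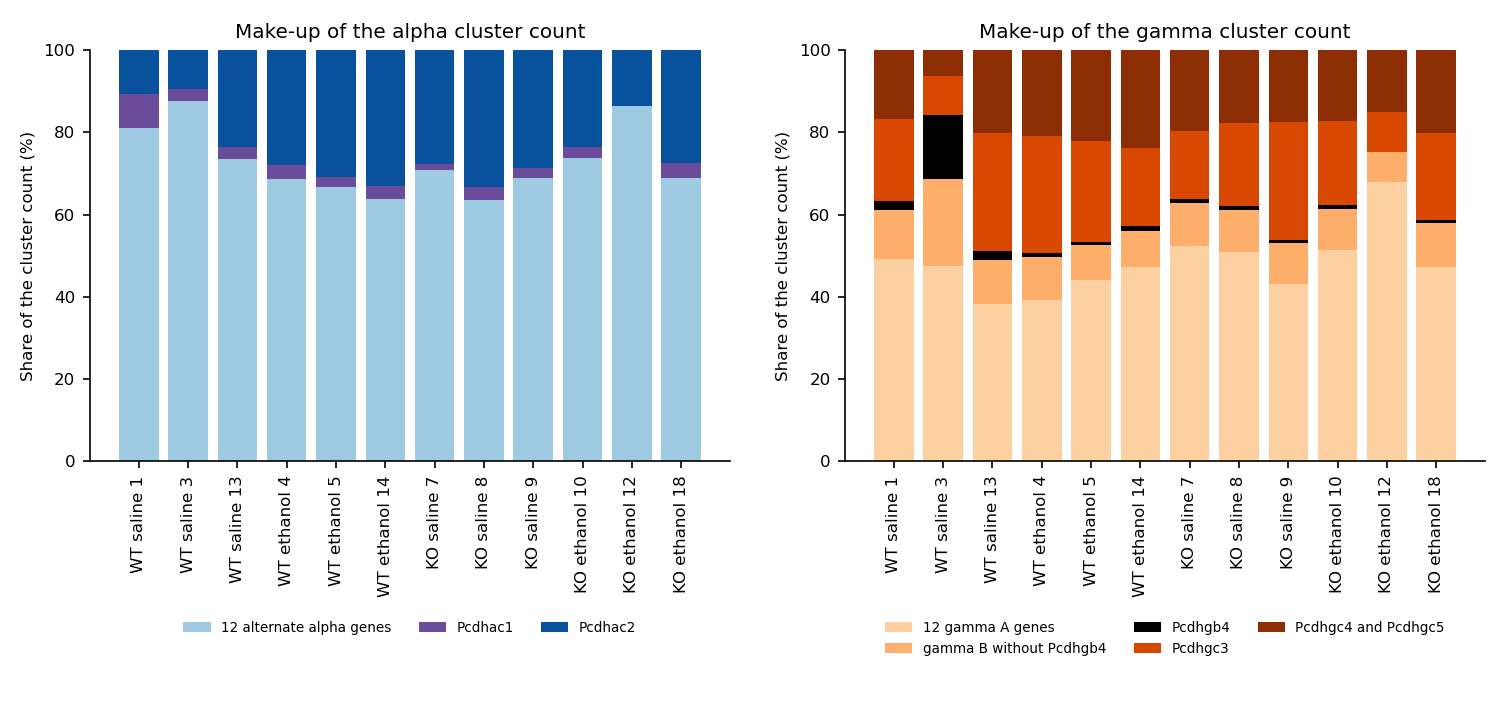
Share (%) of the alpha count (left) and gamma count (right) taken by kinds of members in each library, stacked to 100%. Pcdhac2 holds 9.47% to 23.6% of the alpha count in WT saline and 27.7% to 33.3% in WT ethanol and KO saline libraries. In WT saline replicate 3, Pcdhgb4 (black) holds 15.6% of the gamma count.

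Ethanol versus saline was then tested gene by gene in WT mice. The edgeR quasi-likelihood test was applied to 14739 gene symbols, and 57 of the 58 members passed the filter on low counts (all but Pcdhb1). A gene was called at a Benjamini-Hochberg adjusted p under 0.30, the level used in the study, at which about 30% of the calls over all symbols are expected to be false. In the WT comparison 5 members rose and 7 fell. Of all symbols tested, 12.1% rose and 10.4% fell, so the members, with 8.77% and 12.3%, were called about as often as other genes. No member had an adjusted p under 0.05 in edgeR (0.0746% of all symbols did), DESeq2 or limma, and 10 of 57 members (17.5%) against 18.3% of all symbols had an unadjusted p under 0.05. The calls were divided by cluster. In the alpha cluster 0 of 14 rose and 5 fell, in the beta cluster 0 of 21 rose and 1 fell, and in the gamma cluster 5 of 22 rose and 1 fell. The median log2 fold change was -0.97 in alpha, -0.36 in beta and 0.86 in gamma genes, against 0.06 over all symbols tested. The red blood cell markers moved with this comparison, with 5 of 5 lower after ethanol, and the meningeal markers did not pass the test (0 of 5). Other lists moved in part. Higher were 3 of 5 striatum, 2 of 5 choroid plexus and ependyma, 2 of 6 interneuron, and 2 of 6 endothelial and mural markers. So were 1 of 7 oligodendrocyte lineage and 1 of 4 hippocampus markers. Lower were 2 of 6 microglia, 1 of 7 astrocyte and radial glia, and 1 of 7 pan-neuronal markers. Of the cortical excitatory neuron markers, 0 of 9 were called. The part of these markers in the member results was not tested.

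In the alpha cluster, Pcdha8 had the smallest p. Its level was 32.6, 18.2 and 5.34 CPM in the WT saline libraries, and 0.914, 1.95 and 0.000562 CPM in the WT ethanol libraries, with the groups fully apart. In KO saline libraries it was 1.21, 0.000711 and 2.13 CPM, and in KO ethanol libraries 0.424, 0.0181 and 0.00137 CPM, of which the second, from replicate 12, sets no limit lower than the 5.01 CPM that a count of 0 allows there. These levels correspond to 177, 35.4 and 71.9 estimated counts in WT saline libraries and at most 24.3 in any other, so the fitted change of -4.18 on the log2 scale (SE 1.21, adjusted p = 0.184) rests on few reads and is no bound.
Pcdha5, among the highest alternate alpha genes, had 87.5, 99.5 and 44.6 CPM in WT saline and 25.1, 26.7 and 29.7 CPM in WT ethanol libraries, and again the groups did not overlap. Its log2 fold change was -1.501 (SE 0.59, edgeR adjusted p = 0.221). Pcdha6 fell by 1.00 (SE 0.40, adjusted p = 0.226), from 41.5 ± 11.3 to 20.6 ± 5.94 CPM (SD, n = 3). Pcdha2 and Pcdha11, named here because they were called, fell by 0.78 and 1.03 (edgeR adjusted p = 0.294 and 0.241).
Not all alpha genes went down. Pcdha4 had a log2 fold change of 0.70 and the C-type gene Pcdhac2 one of 0.63 (edgeR adjusted p = 0.376 and 0.418), and neither passed the test. Pcdhac1 had -1.30 (adjusted p = 0.315), with 51.5 CPM in WT saline replicate 1, 0.0109 CPM in KO ethanol replicate 12 and 4.63 to 14.2 CPM in the other 10 libraries. Pcdha9 had -0.03 (adjusted p = 0.985).

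In the beta cluster only Pcdhb17 fell. Its level was 46.7, 20.1 and 28.2 CPM in WT saline and 16.0, 14.0 and 13.9 CPM in WT ethanol libraries, and all 3 ethanol libraries were below the saline libraries. The log2 fold change was -1.12 (SE 0.41, edgeR adjusted p = 0.215). Because nearly all of its windows are its own (98.8%), this value does not depend on how reads were divided. Pcdhb7 and Pcdhb4, next by p, had -0.79 and -0.63 (adjusted p = 0.358 and 0.502), and Pcdhb9 had -0.36 (adjusted p = 0.669).

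In the gamma cluster, Pcdhga8 and Pcdhga7 rose. Pcdhga8 had 6.03, 1.03 and 8.85 CPM in WT saline and 15.9, 13.7 and 14.7 CPM in WT ethanol libraries, and the groups did not overlap. Its log2 fold change was 1.37 (SE 0.53, edgeR adjusted p = 0.217). Pcdhga7 had 3.75, 2.14 and 14.7 CPM in WT saline and 25.2, 16.9 and 14.2 CPM in WT ethanol libraries, with a log2 fold change of 1.37 (SE 0.57, adjusted p = 0.236), and here WT saline replicate 13 overlapped the ethanol group.
Of the C-type genes, Pcdhgc4 and Pcdhgc5 rose by 1.23 and 1.27 on the log2 scale (edgeR adjusted p = 0.273 and 0.269), and Pcdhgc3 had 0.93 (adjusted p = 0.418). Pcdhgc4 is the isoform of this group tied to the survival of cortical interneurons. It had 22.3, 22.3 and 80.3 CPM in WT saline and 138, 67.7 and 89.4 CPM in WT ethanol libraries. For all 3 of these genes, WT saline replicates 1 and 3 were low and replicate 13 lay within the range of the ethanol libraries. Pcdhga11 rose by 0.86 (adjusted p = 0.267).
Pcdhgb4 fell by 2.32 (SE 0.86, adjusted p = 0.214). It had 3.45, 79.4 and 11.7 CPM in WT saline and 8.24, 3.92 and 6.13 CPM in WT ethanol libraries, so the groups overlapped and the fall rested on WT saline replicate 3. Without that library the log2 fold change was -0.40 and was not called.

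**Figure D4:**
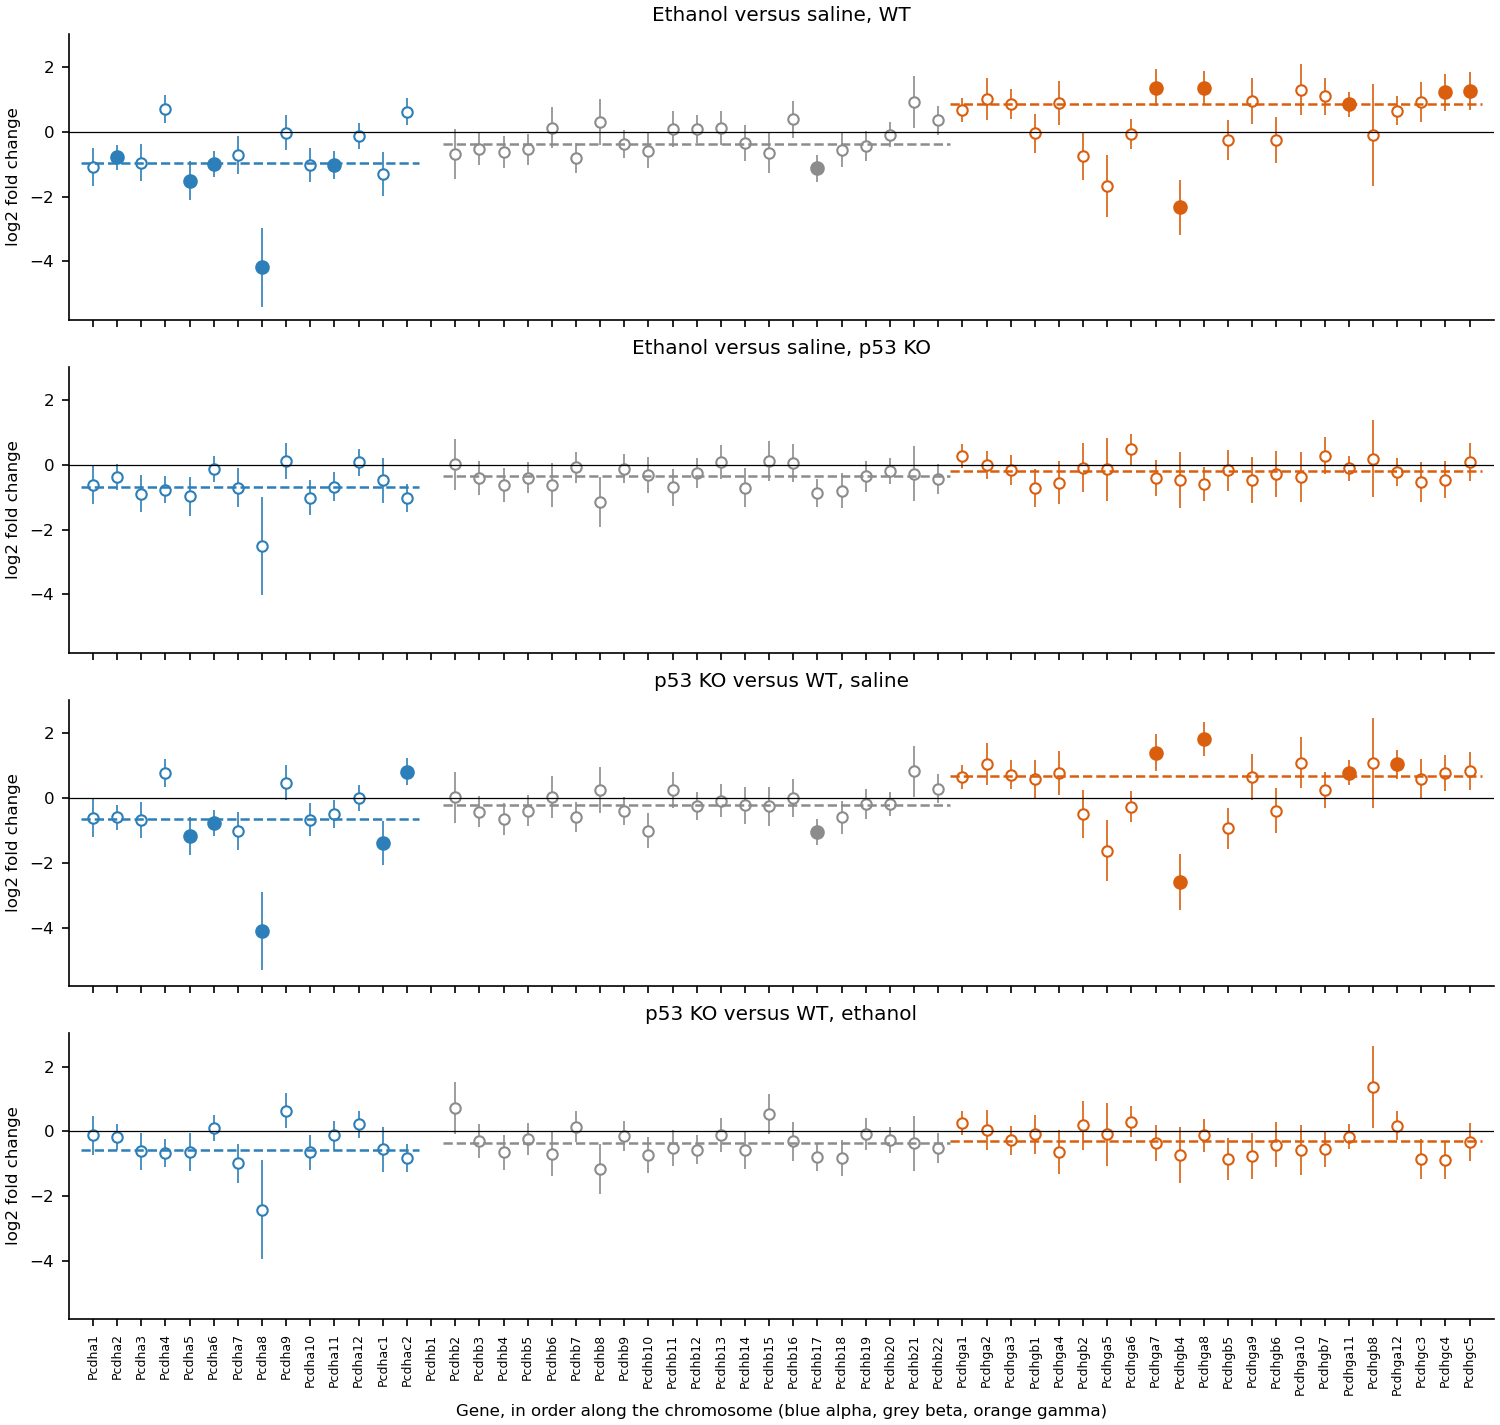
Log2 fold change of each tested member with its standard error in the 4 pairwise comparisons, in order along the chromosome (edgeR). Filled points have an adjusted p under 0.30, open points do not, and dashed lines are the median of each cluster. In WT ethanol versus saline the medians are -0.97 (alpha), -0.36 (beta) and 0.86 (gamma), and no point is filled in the comparisons of KO ethanol with KO saline or with WT ethanol. With library totals in place of TMM factors the beta medians of the panels for WT mice and for saline are 0.20 and 0.33, where the median of all symbols is 0.49 in both. Relative to it they are -0.29 and -0.16, which largely takes back the change of scaling and is no separate check.

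p53 KO mice were compared with WT mice under saline in the same model. This comparison shares the 3 WT saline libraries with the previous one, so a gene that is high or low in those libraries moves in both. There were 5 members that rose and 6 that fell in KO mice, where 12.4% of all symbols rose and 13.4% fell (members, 8.77% and 10.5%). No member had an adjusted p under 0.05 in edgeR (0.0543% of all symbols did) or limma, and 2 gamma members did in DESeq2, while 6 members (10.5%) against 19.6% of all symbols had an unadjusted p under 0.05. In the alpha cluster 1 of 14 rose and 4 fell, in the beta cluster 1 of 21 fell, and in the gamma cluster 4 of 22 rose and 1 fell. The medians were -0.64 in alpha, -0.22 in beta and 0.69 in gamma genes, against 0.04 over all symbols. All 5 red blood cell markers and 4 of 5 meningeal fibroblast markers were also lower in KO mice. So were 2 of 6 microglia and 2 of 7 astrocyte and radial glia markers. Higher were 2 of 5 choroid plexus and ependyma, 2 of 6 endothelial and mural, and 2 of 7 oligodendrocyte lineage markers. With 1 higher gene each were the striatum, interneuron and cortical excitatory neuron lists. Of the 7 pan-neuronal markers 1 was higher and 1 lower, and 0 of 4 hippocampus markers were called. The part of these markers in the member results was not tested.
The alpha genes that fell were Pcdha8 (-4.10 on the log2 scale, edgeR adjusted p = 0.176), Pcdha5 (-1.18, 0.277), Pcdha6 (-0.77, 0.291) and Pcdhac1 (-1.38, 0.273). Pcdha5 had 33.7, 30.8 and 37.4 CPM in the KO saline libraries, all below the WT saline libraries and above the ethanol libraries of both genotypes. Pcdhac2 rose by 0.82 (SE 0.42, adjusted p = 0.293). Its level was 67.1, 36.1 and 102 CPM in WT saline and 91.4, 153 and 118 CPM in KO saline libraries, and the groups overlapped.
Among beta genes, Pcdhb17 fell by 1.05 (SE 0.41, adjusted p = 0.200), with 13.3, 18.0 and 14.7 CPM in KO saline libraries, below all WT saline libraries. Pcdhb10 and Pcdhb4 had -1.01 and -0.66 (adjusted p = 0.312 and 0.470).
Among gamma genes, Pcdhga8 rose by 1.82 (SE 0.53, adjusted p = 0.176), with 23.3, 18.0 and 19.3 CPM in KO saline libraries, each above the highest WT saline library. Pcdhga7 rose by 1.41 and Pcdhga11 by 0.79 (adjusted p = 0.207 and 0.278), and Pcdhga12, named because it was called, by 1.05 (adjusted p = 0.222). Pcdhgb4 fell by 2.60 (adjusted p = 0.177), again with 79.4 CPM in WT saline replicate 3, and had -0.66 without that library. The C-type gamma genes Pcdhgc3, Pcdhgc4 and Pcdhgc5 had 0.60, 0.78 and 0.83 (adjusted p = 0.605, 0.458 and 0.436).

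In p53 KO mice, 0 of 57 members were called for ethanol versus saline, where 0% of all symbols were called at an adjusted p under 0.30 or under 0.05. At an unadjusted p under 0.05 there was 1 member, Pcdhac2, against 3.15% of all symbols (edgeR). DESeq2 and limma also called 0 members. Pcdhac2 had 91.4, 153 and 118 CPM in KO saline and 66.2, 31.7 and 78.0 CPM in KO ethanol libraries, which did not overlap. The 31.7 CPM, from replicate 12, rests on 18.9 estimated counts. The log2 fold change of Pcdhac2 was -1.01 (SE 0.43, adjusted p = 0.999). The next in the alpha cluster were Pcdha10 (-1.01) and Pcdha4 (-0.75), in the beta cluster Pcdhb17 (-0.87), Pcdhb8 (-1.13) and Pcdhb18 (-0.79), and in the gamma cluster Pcdhgb1 (-0.71), Pcdhga8 (-0.58) and Pcdhga6 (0.49), all with an adjusted p of 0.999. Pcdhb17 had 8.53, 3.34 and 10.9 CPM in KO ethanol libraries, the lowest group. The 3.34 CPM, from replicate 12, is under the 5.01 CPM that a count of 0 allows there, and replicates 10 and 18 were below all libraries of the other groups. Of the 57 members, 45 had a negative log2 fold change. Alpha and gamma members share reads, so these are not separate results. KO ethanol replicate 12 was the lowest library in CPM for 7 alpha, 5 beta and 10 gamma members, and 26 of the 58 members had under 3 counts there. The medians were -0.69, -0.34 and -0.19 in the alpha, beta and gamma clusters, against 0.01 over all symbols.
Between p53 KO and WT mice after ethanol, 0 of 57 members were called by edgeR, and 0% of all symbols at either adjusted level (0 members by DESeq2 and limma as well). At an unadjusted p under 0.05 there were 0 members, against 3.24% of all symbols. The medians were -0.59, -0.37 and -0.31 against -0.03 over all symbols, and 45 of 57 members were lower in KO mice. Here too, alpha and gamma members share reads, so these are not separate results, and the share of all symbols that were lower is not given. This comparison shares the KO ethanol libraries with the previous one, so a member that is low in those libraries is lower in both. The smallest p in each cluster belonged to Pcdhac2 (-0.83, SE 0.42), Pcdhb17 (-0.80, SE 0.43) and Pcdhgc4 (-0.90, SE 0.57), and next were Pcdha7 (-0.99) and Pcdha8 (-2.42), Pcdhb18 (-0.82) and Pcdhb8 (-1.17), and Pcdhgc3 (-0.85) and Pcdhgb5 (-0.86), each with an edgeR adjusted p of 0.982.

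The interaction compared the ethanol effect in KO mice with that in WT mice. Of the members, 0 were higher and 3 lower at an adjusted p under 0.30, where 5.64% of all symbols were higher and 5.43% lower (members, 5.26% lower). There were 0 members and 0% of all symbols at an adjusted p under 0.05 in edgeR, 0 members in DESeq2 and limma, and 4 members (7.02%) against 15.2% of all symbols at an unadjusted p under 0.05. The called members were Pcdhac2 (-1.64 on the log2 scale, SE 0.60, edgeR adjusted p = 0.264), Pcdhga8 (-1.95, SE 0.74, 0.266) and Pcdha4 (-1.46, SE 0.61, 0.294). For Pcdhac2, the ethanol effect was 0.63 in WT and -1.01 in KO mice. For Pcdhga8 it was 1.37 and -0.58, with 19.6, 7.79 and 10.7 CPM in KO ethanol libraries, of which the 7.79 CPM, from replicate 12, rests on 4.66 estimated counts. Pcdha4 had 0.70 and -0.75. Its levels were 15.9, 8.67 and 25.1 CPM with saline and 22.8, 30.2 and 29.7 CPM with ethanol in WT mice. In KO mice they were 26.0, 35.8 and 25.0 CPM and then 24.9, 10.5 and 14.1 CPM. WT saline and WT ethanol libraries overlapped. The KO groups were barely apart, with 24.99 CPM in KO saline replicate 9 and 24.94 in KO ethanol replicate 10. The 10.5 CPM, from KO ethanol replicate 12, rests on 6.27 estimated counts. In the alpha cluster, Pcdha6 was next (0.88, adjusted p = 0.484), and in the gamma cluster Pcdhga7 (-1.76, 0.319) and Pcdhgc4 (-1.67, 0.343). In the beta cluster the smallest p belonged to Pcdhb8 (-1.43, adjusted p = 0.534), Pcdhb22 (-0.81) and Pcdhb7 (0.73). The medians were 0.28 in alpha, -0.03 in beta and -0.92 in gamma genes, against -0.11 over all symbols.

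The number of members called depended on which libraries were in the fit. Without WT saline replicate 1, only 2 gamma genes were called for ethanol in WT mice and 1 for genotype under saline, both lower, and 0 for the interaction. In this fit 1.30%, 0.246% and 0.133% of all symbols were called. The share of all symbols called moved in the other fits too, and is given in brackets. The WT ethanol count of 12 (22.5%) became 0 without WT ethanol replicate 4 (0.476%), 2 without WT ethanol replicate 14 (5.54%), 6 without KO saline replicate 9 (12.6%) and 7 without KO ethanol replicate 10 (14.8%). It became 23 without WT saline replicate 3 (48.7%) and 22 without KO ethanol replicate 12 (31.6%). The count of 11 for genotype under saline (25.8%) became 0 without KO saline replicate 8 or 9 (0.0599% each) and 3 without KO saline replicate 7 (9.57%). It became 6 without WT ethanol replicate 5 (21.2%) or KO ethanol replicate 10 (18.8%), 7 without WT ethanol replicate 14 (22.6%) or KO ethanol replicate 18 (20.4%), and 18 without WT saline replicate 3 (50.4%) or KO ethanol replicate 12 (33.4%). The interaction count of 3 (11.1%) became 0 without WT saline replicate 1, any WT ethanol replicate, KO saline replicate 8 or 9, or KO ethanol replicate 12 (0% to 4.89%). It became 1 without KO saline replicate 7 (12.1%) or KO ethanol replicate 18 (11.4%), 5 without WT saline replicate 3 (33.8%) and 7 without WT saline replicate 13 (7.59%). No call was kept in all 12 of these fits. For ethanol in WT mice, Pcdha8 was called in 10 of the 12, and Pcdha5, Pcdha6, Pcdhb17, Pcdhga8 and Pcdhgb4 in 9. For genotype under saline, Pcdha8, Pcdhga8 and Pcdhgb4 were called in 9. The interaction calls were kept in 3 or 4.
Among the 10 libraries named with P alone, 9 members rose and 24 fell with ethanol in WT mice, and 9 rose and 18 fell in KO mice under saline. Of all symbols, 55.4% and 56.4% were then called. The alpha cluster had 12 and 9 of 14 genes lower, the gamma cluster 9 of 22 higher in each comparison, and Pcdhgb4 was no longer called.
The directions of the alpha and gamma medians were kept without each library in turn in both comparisons, at -1.04 to -0.60 (alpha) and 0.45 to 1.26 (gamma) for ethanol in WT mice, and at -0.80 to -0.33 and 0.34 to 1.10 for genotype under saline. With a minimum of 10 counts in each library, 5 alpha genes were left, and their medians were 0.04 and 0.15. With library totals in place of TMM factors, the median over all symbols moved to 0.49 in both comparisons, and relative to it the medians were -0.97, -0.29 and 0.70 for ethanol in WT mice and -0.65, -0.16 and 0.66 for genotype under saline. A change of scaling shifts genes nearly alike, so these relative values had to lie near those with TMM factors. They are no separate check of the directions. The libraries also differed in how counts depended on length and GC content. At the length and GC content of the gamma genes, WT saline replicate 1 was 0.72 lower on the log2 scale than the libraries' mean, and the other libraries lay between -0.21 and 0.35. With this trend removed, 0 gamma genes rose and 10 alpha genes fell with ethanol in WT mice, where 10.5% of all symbols rose and 7.46% fell. In KO mice under saline 1 gamma gene rose and 9 alpha genes fell, where 7.84% of all symbols rose and 6.90% fell.

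**Figure D5:**
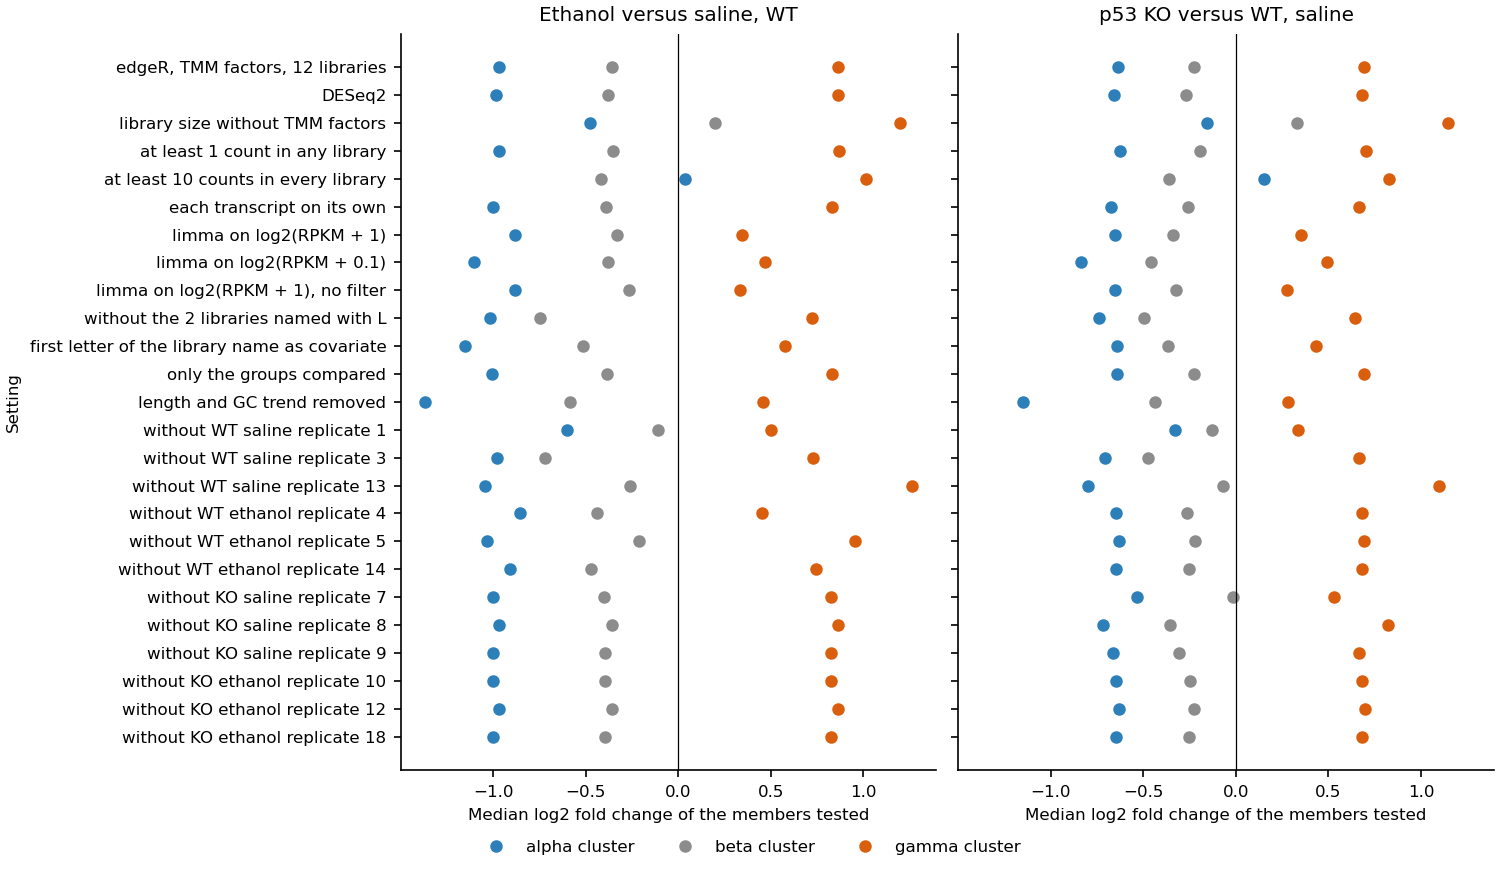
Median log2 fold change of the tested alpha, beta and gamma genes under each analysis setting, for ethanol versus saline in WT mice (left) and p53 KO versus WT mice under saline (right). The first line is the analysis reported, followed by the alternatives and the fits without 1 library each. Gamma medians lie above 0 in all settings shown (0.28 to 1.26), and alpha medians below 0 except with at least 10 counts in every library, where 5 alpha genes remain. Beta medians lie above 0 only with library totals in place of TMM factors (0.20 and 0.33), where the median of all symbols is 0.49.

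Genes that act with the clusters were examined as 3 lists. Over all symbols, 12.1% rose and 10.4% fell in WT mice with ethanol, 12.4% rose and 13.4% fell in KO mice under saline, and 5.64% were higher and 5.43% lower in the interaction. The lists are small, and nothing is read as particular to them. Of 17 tested chromatin regulators of the clusters, which include cohesin, its loaders and the insulator protein CTCF, 6 rose and 0 fell in WT mice with ethanol, and 6 rose and 0 fell in KO mice under saline. In the interaction 5 were lower, and 0 were called in the remaining comparisons. Pds5a, a cohesin-associated factor, had 5.33, 3.60 and 5.20 CPM with saline and 32.9, 21.96 and 26.0 CPM with ethanol in WT mice, and 14.8, 44.2 and 32.5 CPM and then 16.7, 1.67 and 16.6 CPM in KO mice. The 1.67 CPM, from KO ethanol replicate 12, is under the 5.01 CPM that a count of 0 allows there. The WT saline libraries were below all libraries of the WT ethanol and KO saline groups. Its log2 fold changes were 2.48 for ethanol in WT mice, 2.66 for genotype under saline and -3.70 for the interaction (edgeR adjusted p = 0.116, 0.131 and 0.185). Nipbl, which loads cohesin, rose by 1.22 in WT mice with ethanol (adjusted p = 0.220). Smchd1, a silencer of clustered protocadherin promoters, rose by 1.28 in KO mice under saline and had -1.65 in the interaction (0.176 and 0.253). Rest, a repressor of neuronal genes, had 0.184, 0 and 0.0743 CPM in WT saline and 5.15, 2.22 and 1.41 CPM in WT ethanol libraries, which is too few reads for a firm fold (fitted 4.77, adjusted p = 0.113). Ctcf itself had 50.0, 63.8 and 31.5 CPM in WT saline and 68.3, 56.6 and 69.2 CPM in WT ethanol libraries, which overlapped.
Of the 11 non-clustered protocadherins, 2 rose with ethanol in WT mice and in KO mice under saline, and the same 2, Pcdh17 and Pcdh1, were lower in the interaction. Pcdh17, a synaptic and axonal adhesion molecule, had 24.1, 15.9 and 21.7 CPM with saline and 146, 84.3 and 45.8 CPM with ethanol in WT mice, and 44.0, 105 and 134 CPM and then 40.2, 38.4 and 31.8 CPM in KO mice. The WT saline libraries were the lowest 3 of 12. Its log2 fold changes were 2.15, 2.19 and -3.52 in the same order (edgeR adjusted p = 0.104, 0.134 and 0.162), and those of Pcdh1 were 1.99, 2.02 and -2.35 (0.153, 0.160 and 0.25). In the comparisons with no call, Pcdh17 and Pcdh19 had the smallest p of this list, with -1.36 and -1.17 for ethanol in KO mice and -1.33 and -0.96 for genotype after ethanol.
Of 19 partners and signal transducers, 0 rose and 3 fell with ethanol in WT mice, and 1 rose (Prkca, 0.72) and 3 fell in KO mice under saline. The 3 were Brk1, a subunit of the WAVE complex, Rac1, the GTPase that activates it, and Marcks, a substrate of protein kinase C. Marcks fell by 1.07 with ethanol in WT mice and by 1.14 in KO mice under saline (edgeR adjusted p = 0.239 and 0.202), Brk1 by 1.00 and 1.18 (0.246 and 0.186) and Rac1 by 0.83 and 0.92 (0.249 and 0.201). In limma on log2(RPKM + 1) the ethanol value of Rac1 was 0.0025. Brk1 was the 1 gene of this list called in the interaction, where it was higher (1.48, adjusted p = 0.292).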

How the data were processed

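Total RNA of 12 cortex samples was sequenced as stranded single-end reads. The authors filtered reads at a quality score of 30, aligned them to mm10 (GRCm38) by TopHat with Bowtie2, and counted them per RefSeq transcript with Partek Flow (versions not given in the sources used here). They deposited estimated counts per transcript, in which shared reads are divided, and RPKM, whose sorted values are nearly the same in every library. The estimated counts were summed per symbol and rounded. Genes were tested with edgeR 4.0.16 (filterByExpr, TMM, quasi-likelihood, 1 mean per group over the 12 libraries, Benjamini-Hochberg adjustment over 14739 symbols). P-values set the difference between groups against the spread between these samples, which was estimated over all 12 libraries and in part across genes. In a simulation of ethanol versus saline in WT mice on 14559 genes, 98.5% of 200 genes changed 8-fold passed the adjusted threshold of 0.30, as did 106 unchanged genes. The changed genes were drawn from the better-expressed genes, and each gene had the same spread in all libraries. The simulation therefore does not give the share found for smaller changes, for low members or with outlying libraries. Alternatives used DESeq2 1.42.0, limma 3.58.1 on log2(RPKM + 1), other filters and scalings, and fits without single libraries.

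Named are the 5 C-type genes, the 3 members per cluster with the highest mean RPKM and the 3 per cluster and contrast with the smallest p, and other called members, chosen after their values were seen. From the 3 lists of related genes, up to 3 called genes per contrast are named, otherwise those with the smallest p. The members, these lists and 12 cell type marker lists were chosen with earlier results of these data known. No sequence is printed. Transcript structure, length and GC content were taken from GENCODE models of GRCm38, with a match for all 58 members. The longest matching model was used. The length and GC content behind the trend can therefore differ from those of the counted transcript, as for several beta genes.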

Additional observations from a re-analysis of the deposited data

Results flagged for a closer look

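The ethanol effect differed between genotypes in 3 members by the interaction term of edgeR at an adjusted p under 0.30. The log2 difference, KO minus WT, was -1.64 for Pcdhac2 (adjusted p = 0.264), -1.95 for Pcdhga8 (adjusted p = 0.266) and -1.46 for Pcdha4 (adjusted p = 0.294). The fitted log2 fold changes with ethanol were above 0 in WT mice and below 0 in KO mice for each of them. Of 57 members 5.26% were lower, against 5.43% of all symbols. Of the effects within a genotype, that of Pcdhga8 in WT mice passed the test (1.37, adjusted p = 0.217), and those of Pcdhac2 and Pcdha4 in WT mice and of all 3 genes in KO mice did not. The interaction calls were kept in 4 (Pcdhac2), 3 (Pcdhga8) and 3 (Pcdha4) of the 12 fits without 1 library each. Groups of 3 libraries were not tested for single outlying samples.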

How the results depend on the processing

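The number of members called was 12 for ethanol in WT mice, 11 for genotype under saline and 3 for the interaction, where 22.5%, 25.8% and 11.1% of all symbols were called. Brackets give that share under each alternative. For ethanol in WT mice it became 21 with DESeq2 (27.9%), 5 of the 13 members left with at least 10 counts in every library (27.4%), 2, 1 and 2 with limma on log2(RPKM + 1), log2(RPKM + 0.1) and log2(RPKM + 1) with no filter (2.36%, 1.41% and 1.65%), 33 without both libraries named with L (55.4%) and 0 when only the compared groups were fitted (0.278%). For genotype under saline it became 5 with at least 10 counts (35.5%), 6 with each transcript on its own (23.8%), 2, 1 and 1 with the limma settings (3.11%, 1.90% and 1.19%), 27 without the libraries named with L (56.4%) and 7 with only the compared groups (18.1%). For the interaction it became 5 with DESeq2 (18.2%), 1 with at least 10 counts (24.5%), and 0 with the limma settings (0% to 0.112%), with the name's first letter as covariate (0%) and with the length and GC trend removed (0.712%), and fitting only the compared groups gave no value. Without 1 library each, the counts ranged from 0 to 23, 0 to 18 and 0 to 7, and stayed at 0 for the other comparisons. The cause was not tested. The log2 ratio of the alpha sums for ethanol in WT mice became 0.027 without TMM factors, -0.90 with the length and GC trend removed, -0.78 without the most abundant member, -0.76 without the C-type genes and -0.97 as the median member. That for ethanol in KO mice became -0.26 with the trend removed. For genotype under saline the alpha ratio became 0.25 without TMM factors, -0.79 with the trend removed, -0.55 without the most abundant member and -0.64 as the median member. Without WT saline replicate 1 the alpha ratios for ethanol in WT mice and genotype under saline were -0.23 and -0.02. The beta ratios became 0.18 and 0.17 without TMM factors. That scaling moved the median of all symbols from 0.06 and 0.04 to 0.49. Of single genes, Rac1 with ethanol in WT mice had 0.0025, 0.0026 and 0.0025 in limma. Pcdhga6 with ethanol in KO mice had -0.031 without the libraries named with L, and -0.013 to 0.78 without single libraries. In the interaction Pcdhb22 had 0.16 with the trend removed, and Pcdhac1 -0.24 to 1.27 without single libraries. Of 2240 values of 97 single-gene results, 1745 kept direction and side of the threshold, 453 lost a call, 35 gained one and 7 reversed. No paired analysis was possible because the labels give no litter and no pairing of libraries between groups. The low totals of WT saline replicate 3 and KO ethanol replicate 12 limit the precision for low members.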

Other observations

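Summed levels of the marker lists not given above differed between libraries as follows, in TMM-scaled CPM. Pan-neuronal markers ranged from 5313 to 11531, with the lowest value in WT ethanol replicate 4 and the highest in KO ethanol replicate 12, which was also highest for interneuron markers (1026, against 261 to 639 elsewhere). WT saline replicate 1 was the lowest library for oligodendrocyte lineage markers (186, with the highest at 672) and for hippocampus markers (14.1, with the highest, WT ethanol replicate 4, at 137). Striatum markers were at 887 in WT ethanol replicate 14 and at 96.5 to 413 in the other libraries. Microglia markers ranged from 61.2 to 251, and endothelial and mural cell markers from 163 to 341. Red blood cell markers fell in 5 of 5 genes for ethanol in WT mice and for genotype under saline (edgeR, adjusted p under 0.30), and 4 of 5 were higher in the interaction. There, 1 of 7 pan-neuronal markers was also higher, and 2 of 6 interneuron and 1 of 7 oligodendrocyte lineage markers were lower. The part of these differences in the protocadherin levels was not tested.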
